A study of Mus musculus with 12 samples.

Results

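Expression of 8 genes that encode targets of organ-specific autoimmunity was followed in mouse thymic epithelial cells (TECs). They were taken by symbol from the count table: Ins2, Gad1, Gad2 and Ptprn for islet autoimmunity, Tg for the thyroid, Rbp3 for the eye, and Mog and Mbp for myelin. All 8 were found among the 25867 genes of the table that carry a symbol, and 6 had enough counts to be tested. TECs had been sorted from organ cultures of C57BL/6 thymic lobes harvested at E15.5. Every culture, controls included, had first received 1.35 mM 2'-deoxyguanosine over 4 to 5 days, which removes thymocytes, and then 10 µg/mL of an agonist antibody to RANK over 3 days, which brings on Aire expression. The 4 groups held 3 libraries each. Control and Knockout cultures were both given tamoxifen; the Control genotype is labelled only as control, and the Knockout is Kat7 knockout, by RosaCre-ERT2 acting on Kat7fl/fl. DMSO and WM-3835 cultures were wildtype, and WM-3835 is an inhibitor of KAT7, a histone acetyltransferase also called HBO1. The inhibitor's dose and duration are not in the labels, whose sample titles spell it WM-3825. The Rosa26 locus that drives RosaCre-ERT2 is active in most cell types, so the Cre was not limited to TECs. Fetal organ culture holds lobes without blood supply or the tissues that normally express these antigens.

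Medullary TECs transcribe a great many genes that belong to other tissues and present the peptides to developing T cells, which deletes self-reactive cells or turns them into regulatory T cells. The protein AIRE drives many of these genes, and FEZF2 drives others. Each TEC makes only a small and variable part of the repertoire, so a tissue antigen is usually rare in a bulk library. Insulin in the thymus is a textbook case: lower thymic insulin expression is associated with type 1 diabetes in humans and in mouse models.

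Libraries held 26656847 to 52368012 counts, so that 3 counts, used as the detection limit, correspond to 0.0578 to 0.112 CPM. CPM is the usual unit of counts set to a common library total, here scaled by TMM, edgeR's trimmed-mean method. Counting intervals are exact 95% Poisson intervals and, like this limit, cover counting error only. Kat7 had a log2 change of -6.74 in Knockout (SE 0.13, adjusted p = 1.31e-16). Epithelial marker genes summed to 15026 to 19910 CPM and 10 thymocyte markers to 8.21 to 16.4 CPM. Of the thymocyte markers, Lck (6.71 to 14.2 CPM), Cd4 (0.779 to 4.01) and Rag1 (0.110 to 1.11) had counts in every library. Cd8b1 and Cd2 were each at 0 in 11 of 12 libraries. Xist, the RNA of the inactive X chromosome, stood at 2.34 to 3.17 CPM in Control, at 1709, 1191 and 4.94 CPM in Knockout 1 to 3, and at 846 to 2118 CPM in DMSO and WM-3835, so X-chromosome makeup and group cannot be told apart between Control and the wildtype groups. Knockout 1 and 2 differed from all Control libraries in the same way, so the 2 are only partly separable in Knockout against Control. Control libraries also differed most among themselves, with a biological coefficient of variation of 0.464 against 0.101 to 0.295 in the other groups. The labels name the 3 libraries of a group biological replicates.

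Regulatory sequence is shown for a well-detected antigen gene (Gad1), its rare paralog (Gad2) and both nearly undetected ones (Rbp3 and Mog). Gad1, Rbp3 and Mog mark the ends of the range of levels among the 5 genes with a listed promoter. Mbp, the highest of the 8, has none. The 250 bases before a listed start are given from the RefSeq promoter table (build GRCm38.p6, which is mm10), 5′ to 3′ along the gene, with CG dinucleotides in capitals. Of the 8 genes, 5 have an entry: Gad1, Gad2, Ptprn, Rbp3 and Mog. Gad1 lies at chr2:70561879-70562128, plus strand; Gad2 at chr2:22622077-22622326, plus strand; Rbp3 at chr14:33953753-33954002, plus strand; and Mog at chr17:37023399-37023648, minus strand. The Rbp3 and Mog stretches end where the gene begins, whereas those of Gad1, Gad2 and Ptprn precede a start inside the gene's full span and so lie within it.
Gad1: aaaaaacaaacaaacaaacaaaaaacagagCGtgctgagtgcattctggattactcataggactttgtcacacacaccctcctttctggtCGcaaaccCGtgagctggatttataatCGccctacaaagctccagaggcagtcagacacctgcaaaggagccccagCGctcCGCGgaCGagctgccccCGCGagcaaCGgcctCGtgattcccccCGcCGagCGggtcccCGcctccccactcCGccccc
Gad2: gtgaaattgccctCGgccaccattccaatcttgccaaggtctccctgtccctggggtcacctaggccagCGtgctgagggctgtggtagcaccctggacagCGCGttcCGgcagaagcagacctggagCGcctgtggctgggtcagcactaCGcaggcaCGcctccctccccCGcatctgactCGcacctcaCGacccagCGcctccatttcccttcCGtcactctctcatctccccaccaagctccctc
Rbp3: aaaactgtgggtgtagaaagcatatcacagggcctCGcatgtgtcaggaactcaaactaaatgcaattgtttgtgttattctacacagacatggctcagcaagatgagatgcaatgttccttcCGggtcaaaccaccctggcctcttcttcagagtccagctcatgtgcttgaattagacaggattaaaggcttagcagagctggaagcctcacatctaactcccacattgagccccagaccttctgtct
Mog: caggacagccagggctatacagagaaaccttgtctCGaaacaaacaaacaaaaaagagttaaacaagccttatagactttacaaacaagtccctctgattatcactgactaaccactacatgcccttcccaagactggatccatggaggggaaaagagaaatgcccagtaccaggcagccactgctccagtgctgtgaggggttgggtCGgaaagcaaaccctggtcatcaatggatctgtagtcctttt
The Gad1 stretch held 17 CG and the Gad2 stretch 13, more than 76.5% and 68.5% of the 32851 promoters in the table. The stretches before Rbp3 and Mog held 2 each, more than 18.8% of promoters, where the median promoter held 6. The 2 listed starts of Ptprn had 12 and 10 CG. The letters TATAAA, searched on both strands, were found only before Gad1 among these 5 genes. There they lay on the strand opposite to the gene, so the stretch above reads tttata. On either strand, 12.4% of all promoters of the same length held them. By the levels described next, Gad1 stood first of these 5 genes, followed by Ptprn, Gad2, and then Mog and Rbp3. Their CG counts took that order except that Gad2, with 13, exceeded Ptprn, and that Mog and Rbp3 were tied. A relation between CG count and level was not tested.

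Levels of the 8 genes differed widely per length of transcript, with Mbp and Gad1 well detected and Rbp3 and Mog at or below the detection limit in nearly all libraries. CPM per kilobase of the deposited gene length (CPM per kb), averaged over the 12 libraries, were 7.28 for Mbp, 4.36 for Gad1, 0.658 for Ptprn, 0.511 for Ins2, 0.212 for Tg, 0.0679 for Gad2, 0.00571 for Mog and 0.00215 for Rbp3. Mbp lay above 64.9% of all genes with a symbol on this scale and Rbp3 above 12.5%. Aire itself averaged 379 CPM per kb, above 99.6% of genes, and Fezf2 55.3, above 94.7%. Mbp exceeded Gad1, and Gad1 exceeded Ptprn, in 12 of 12 libraries. Ptprn exceeded Ins2 in 8 libraries and Ins2 exceeded Tg in 7, so those neighbours did not differ beyond their spread. Tg exceeded Gad2 in 12 of 12 libraries, although their ranges over all libraries overlapped (0.0792 to 0.491 against 0 to 0.177 CPM per kb). Mog and Rbp3 could not be ordered.

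**Figure D1:**
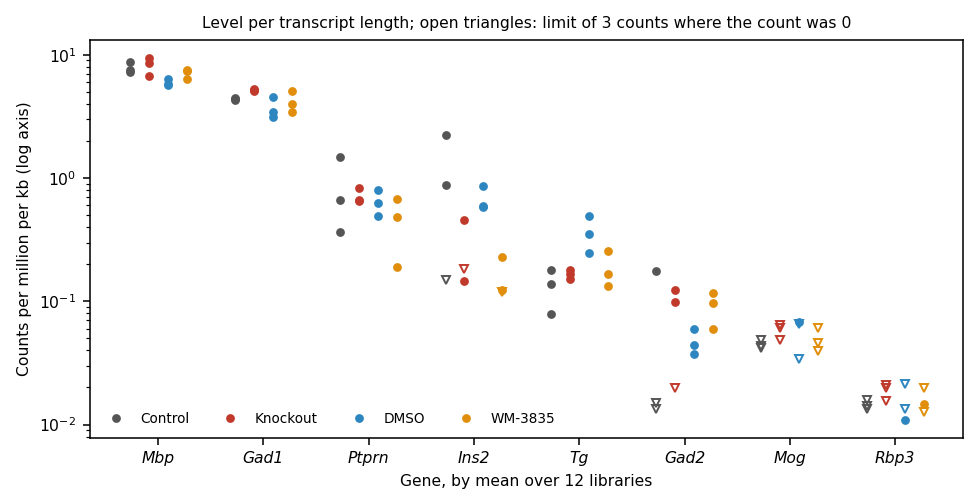
Level of each antigen gene per transcript length (CPM per kb, log axis) in the 12 libraries, coloured by group; open triangles mark libraries with a count of 0 at the limit set by 3 counts. Mbp (mean 7.28) and Gad1 (mean 4.36) stand apart from the other 6 genes, and most points of Mog and Rbp3 are limits.

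Ins2 encodes insulin II, 1 of the 2 mouse insulins and the form made in the thymus (Entrez 16334, chromosome 7, 142678656 to 142679726 on mm10, exons of 565 bases). It was counted 21, 51 and 0 times in Control 1 to 3, 3, 7 and 0 times in Knockout, 17, 9 and 21 times in DMSO, and 0, 5 and 2 times in WM-3835. In CPM that was 0.497, 1.27 and 0 in Control, 0.0826, 0.258 and 0 in Knockout, 0.328, 0.337 and 0.492 in DMSO cultures, and 0, 0.130 and 0.0694 in WM-3835. The Control libraries ran from no count to the highest level of the series, and the Knockout libraries lay within that span. All 3 WM-3835 libraries lay below all 3 DMSO libraries, the highest at 0.130 CPM against a lowest of 0.328 CPM. Group means were 0.589 ± 0.640 CPM for Control, 0.113 ± 0.132 for Knockout, 0.385 ± 0.0921 for DMSO and 0.0666 ± 0.0652 for WM-3835 (SD, n = 3 here and throughout).

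Neither difference passed the test in the model of all 12 libraries. In bulk RNA, fewer cells making a transcript and less of it per cell cannot be told apart, here or for the other genes. The log2 change of Ins2 was -2.36 in Knockout against Control (SE 1.60, 95% interval -5.73 to 1.01, adjusted p = 0.370) and -2.50 in WM-3835 against DMSO (SE 1.64, -5.93 to 0.94, adjusted p = 0.341). Fitted on the DMSO and WM-3835 libraries alone, which vary less, the difference passed narrowly (-2.54, adjusted p = 0.0454). An exact two-sided permutation test of the CPM values gave p = 0.1 for WM-3835 against DMSO, the smallest that 3 against 3 libraries allow. Among all tested genes, 46.1% had WM-3835 and DMSO libraries that did not overlap, 23.0% with WM-3835 lower. Summed markers of neuroendocrine cells (Chga, Chgb, Syp, Insm1, Neurod1), all 5 with counts in each group, ran from 158 to 262 CPM in Control, 260.1 to 330.2 in Knockout, 219 to 242 in DMSO and 129 to 279 in WM-3835; their part in the Ins2 result was not tested. Its paralog Ins1 had 19 counts in 3 libraries, and how reads shared by the 2 insulin genes were counted is not given in the sources used here.

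Gad1 and Gad2 encode the glutamate decarboxylases GAD67 and GAD65, the enzymes that make the neurotransmitter GABA; GAD65 is a leading autoantigen of human type 1 diabetes. Gad1 (Entrez 14415, chromosome 2, 70561303 to 70602014, exons of 3231 bases) was counted 318 to 634 times in every library. It stood at 13.8, 14.3 and 14.1 CPM in Control, 16.7, 16.4 and 17.1 in Knockout, 10.2, 14.7 and 11.05 in DMSO cultures, and 12.8, 16.5 and 11.03 in WM-3835. The 3 Knockout libraries all lay above the 3 Control libraries, with almost no spread inside either group, whereas DMSO and WM-3835 overlapped. Means were 14.1 ± 0.252 CPM in Control and 16.7 ± 0.345 in Knockout, a log2 difference of 0.25 (SE 0.18, 95% interval -0.12 to 0.61) that did not pass (adjusted p = 0.394). Libraries of Knockout and Control did not overlap for 25.7% of tested genes, with Knockout higher for 12.2%. The spread of Gad1 inside groups was uneven. Squared deviations of the counts were 0.185 and 0.198 times those of pure counting in Control and Knockout, and 16.2 and 20.0 times in DMSO and WM-3835. WM-3835 against DMSO gave 0.18 (SE 0.18, -0.19 to 0.55, adjusted p = 0.579), from means of 13.5 ± 2.80 and 11.98 ± 2.39 CPM.

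Gad2 (Entrez 14417, chromosome 2, 22621015 to 22693877, exons of 5625 bases) was counted 42, 0 and 0 times in Control, 20, 0 and 20 times in Knockout, 13, 9 and 9 times in DMSO, and 15, 21 and 19 times in WM-3835. It was at 0 in 3 of the 6 tamoxifen libraries and present in all 6 wildtype libraries at 0.211 to 0.659 CPM, and Control 1 held all the Gad2 counts of its group. Group means were 0.331 ± 0.574 CPM for Control, 0.415 ± 0.367 for Knockout, 0.266 ± 0.0644 for DMSO and 0.514 ± 0.164 for WM-3835. The log2 difference was 0.32 for Knockout (SE 1.55, -2.93 to 3.57, adjusted p = 0.920) and 0.95 for WM-3835 (SE 1.56, -2.33 to 4.22, adjusted p = 0.765). Intervals this wide leave room for a large difference in either direction. Within a library Gad1 exceeded Gad2 per kb by 24.2 to 91.3-fold in the 9 libraries with Gad2 counts, and by at least 258-fold in the 3 at 0 when Gad2 is set at 3 counts. Gad1 was the higher of the pair in all 12 libraries.

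Ptprn encodes IA-2, a receptor-type phosphatase without enzymatic activity in the membrane of secretory granules and another major islet autoantigen (Entrez 19275, chromosome 1, 75247035 to 75264497, exons of 3535 bases). It stood at 2.34, 1.29 and 5.23 CPM in Control, 2.29, 2.91 and 2.33 in Knockout, 1.73, 2.81 and 2.20 in DMSO cultures, and 0.671, 2.40 and 1.70 in WM-3835. Control 3 held the highest level and WM-3835 1 the lowest, and the groups overlapped in both comparisons. The log2 difference was -0.24 in Knockout (SE 0.52, -1.32 to 0.85, adjusted p = 0.818) and -0.50 in WM-3835 (SE 0.52, -1.60 to 0.60, adjusted p = 0.604). Without Control 3 the first became 0.47 (adjusted p = 0.605), so its sign rested on that library. Ptprn shares 189 of its 4249 exonic bases in the GENCODE annotation with the antisense gene Gm28294, whose reads an unstranded library cannot separate. Its paralog Ptprn2, which encodes the islet autoantigen phogrin (IA-2β), fell with WM-3835 from 13.8 ± 0.593 to 5.87 ± 0.893 CPM, a log2 change of -1.24 with SE 0.18 (adjusted p = 8.26e-05).

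The 3 rare islet transcripts peaked in different Control libraries. Gad2 was highest in Control 1 (0.994 CPM) and at 0 in Controls 2 and 3, Ins2 was highest in Control 2 (1.27 CPM) and at 0 in Control 3, and Ptprn was highest in Control 3. Relative to counting error, squared deviations among Control libraries were 37.8 times as large for Gad2, 25.8 for Ins2 and 54.4 for Ptprn. In DMSO libraries the same ratios were 0.515, 0.927 and 4.81, so Ins2 and Gad2 varied there no more than counting alone gives. Over all genes with 10 to 100 counts in a group, the depth of Ins2 and Gad2, the median ratio was 14.6 in Control and 3.13 in DMSO. Over genes with 100 to 1000 counts, where Ptprn lies, it was 18.1 and 3.505, so wider spread in Control was common to genes of both depths.

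**Figure D2:**
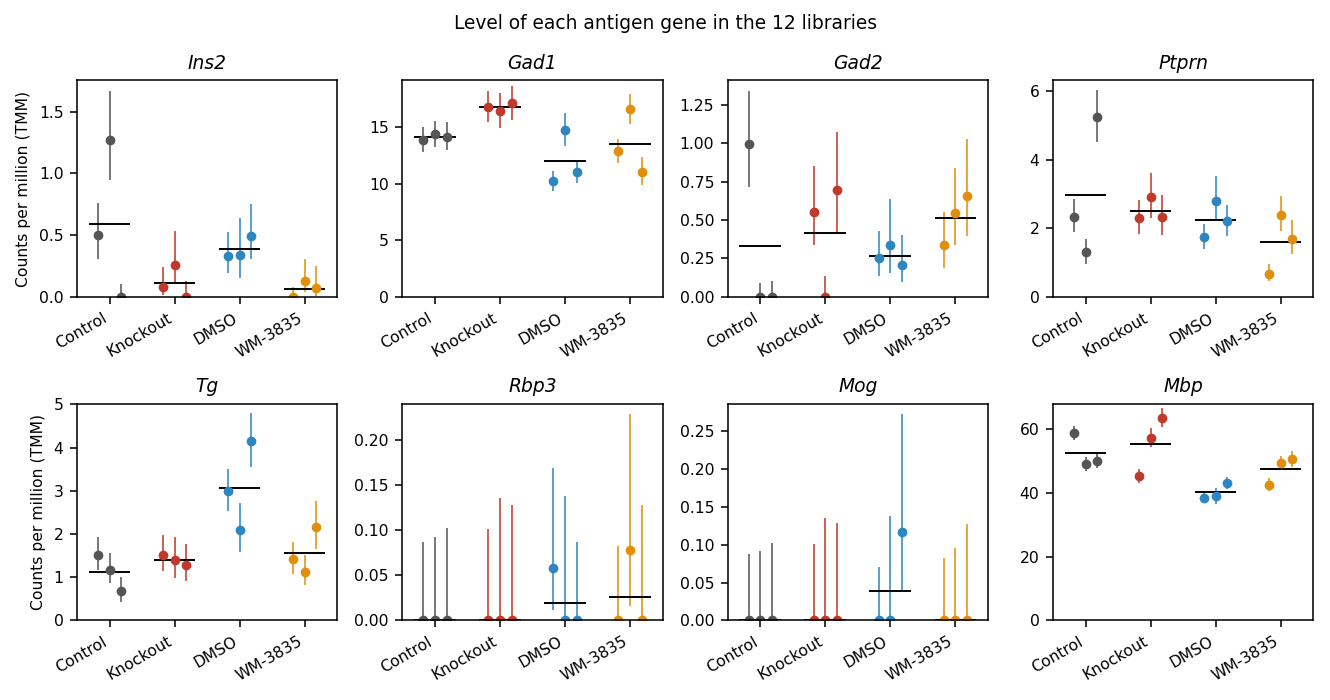
Level of each antigen gene (CPM; each panel has its own axis from 0) in the 3 libraries of each group, with exact 95% Poisson counting intervals as vertical lines and the group mean as a bar. The Tg panel has all DMSO libraries (lowest 2.09) above all Control libraries (highest 1.51), and the Ins2 panel has all WM-3835 libraries below all DMSO libraries.

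Tg encodes thyroglobulin, the large secreted glycoprotein on which thyroid hormone is built and a target of autoimmune thyroiditis (Entrez 21819, chromosome 15, 66670754 to 66850721, exons of 8437 bases). It stood at 1.51, 1.17 and 0.668 CPM in Control, 1.52, 1.40 and 1.29 in Knockout, 2.99, 2.09 and 4.14 in DMSO cultures, and 1.41, 1.12 and 2.15 in WM-3835. The 3 DMSO libraries lay above all Control and Knockout libraries. DMSO and Control libraries did not overlap for 38.9% of tested genes, with DMSO higher for 19.6% and lower for 19.4%. WM-3835 libraries lay lower than DMSO ones except that WM-3835 3, at 2.15 CPM, just passed DMSO 2, at 2.09 CPM. Means were 1.12 ± 0.426 CPM for Control, 1.40 ± 0.114 for Knockout, 3.07 ± 1.03 for DMSO and 1.56 ± 0.531 for WM-3835.

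Knockout differed from Control in Tg by 0.32 on the log2 scale (SE 0.50, 95% interval -0.72 to 1.36, adjusted p = 0.724). WM-3835 differed from DMSO by -0.98 (SE 0.49, -2.01 to 0.05), which did not pass in the 12-library model (adjusted p = 0.190). It did pass when the 6 wildtype libraries were fitted alone (-1.003, adjusted p = 0.0329), and under limma-voom with a quality weight for each group (-1.09, adjusted p = 0.0150). The difference between the knockout and inhibitor effects, 1.31 (SE 0.70), did not pass (adjusted p = 0.276). DMSO against Control, which differ in treatment and in genotype label, gave 1.46 (SE 0.50, 0.41 to 2.50, adjusted p = 0.0387). That call was lost in 9 of 16 other settings. Without Control 2, Control 3, DMSO 1 or DMSO 3 it gave 1.20 to 1.51 (adjusted p from 0.0524 to 0.201). The others were the 6 libraries alone (1.45, 0.0662), quality weights (1.51, 0.118), no filter on low counts (1.49, 0.0541), a replicate block (1.42, 0.0640) and Xist as a covariate (1.11, 0.589). Xist separates all Control from all DMSO libraries, so that covariate cannot tell X-chromosome makeup from group here.

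Mean levels of follicular thyroid markers differed in direction between Control and DMSO, but of those given here only the fall of Foxe1 passed. Mean Slc5a5 went from 10.5 to 12.5 CPM and Nkx2-1 from 0 to 0.139 CPM. Foxe1 went from 8.38 to 1.41 CPM and Pax8 from 1.49 to 0.440 CPM. In the 12-library model the log2 difference was -2.58 for Foxe1 (adjusted p = 1.35e-05), -1.76 for Pax8 (0.251) and 0.24 for Slc5a5 (0.507). Nkx2-1 had too few counts to test. The summed level of Slc5a5, Pax8, Nkx2-1 and Foxe1 was 17.5 to 21.9 CPM in Control (3 of 4 with counts), 12.3 to 17.1 in Knockout (3 of 4), 12.3 to 16.6 with DMSO (4 of 4) and 6.52 to 9.06 in WM-3835 (4 of 4). Nkx2-1, a defining transcription factor of the follicle, was at 0 in 8 of 12 libraries. The part of such cells in the Tg values was not tested. Tg shares 112 of 8883 exonic bases with the antisense gene Gm17140, and none with Sla, which lies within its introns.

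Aire was higher in DMSO than in Control by 0.92 (adjusted p = 8.75e-08) and lower in WM-3835 than in DMSO by a log2 change of -1.11 (adjusted p = 3.36e-08), comparisons that share the DMSO libraries. In Knockout Aire was lower by a log2 change of -0.24 (adjusted p = 0.0457), while Tg gave 0.32 and did not pass. That Aire call was lost in 9 of 17 other settings, among them without Control 2, Control 3, Knockout 1 or Knockout 2 (-0.24 to -0.17, adjusted p from 0.0861 to 0.222). Fezf2 was higher in DMSO than in Control by 0.28 (adjusted p = 0.0203), a call lost in 4 of 16 other settings, among them without Control 1, DMSO 1 or DMSO 2 (0.22 to 0.28, adjusted p from 0.0508 to 0.0655). Its log2 difference was -0.00 between WM-3835 and DMSO (adjusted p = 0.991) and 0.16 between Knockout and Control (adjusted p = 0.212).

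The genes whose log2 CPM followed Tg most closely over the 12 libraries, of 16820 genes compared, were Pdia4 (Pearson r = 0.972), Sdf2l1 (0.962) and Hsp90b1 (0.955). All points share library depth and group, so r describes these libraries only. Their log2 changes were -0.56, -1.13 and -0.67 in WM-3835 against DMSO (adjusted p = 0.00922, 0.00336 and 0.000402) and 0.94, 1.56 and 0.89 in DMSO against Control.

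**Figure D3:**
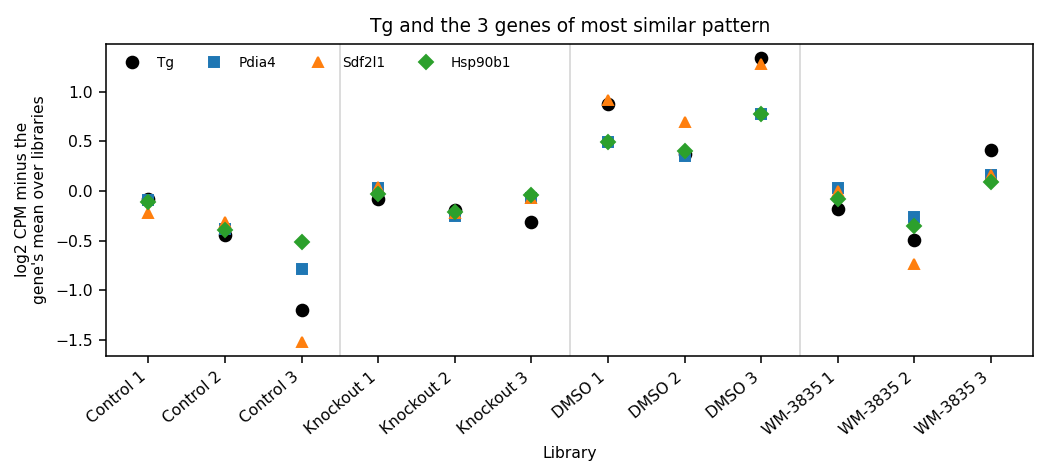
Tg and the 3 genes of most similar pattern, as log2 CPM minus each gene's mean over the 12 libraries (vertical axis), by library (horizontal axis, groups separated by grey lines). All 4 genes are high in the DMSO libraries and lowest in Control 3, where Tg stands 1.20 below its mean.

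Rbp3 encodes the interphotoreceptor retinoid-binding protein, the retinal antigen used to induce uveitis in mice and one whose loss from the thymus accompanies eye autoimmunity in Aire-deficient animals (Entrez 19661, chromosome 14, 33954003 to 33964219, exons of 5276 bases). Only 6 counts were found in all 12 libraries, 3 in DMSO 1 and 3 in WM-3835 2, and it was at 0 in the other 10. The level in the libraries at 0 was below the limit of 3 counts. Mog encodes a glycoprotein on the outer surface of myelin and is the antigen of a common mouse model of multiple sclerosis (Entrez 17441, chromosome 17, 37010740 to 37023398, exons of 1707 bases). It had 5 counts, all in DMSO 3 (0.117 CPM), and was at 0 in the other 11 libraries. For both genes the groups could not be separated at this depth, and no fold change is given. Exact two-sided permutation tests gave p = 1 in each comparison. No group had counts in more than 1 library, too few for that test to separate groups, so no conclusion is drawn from it.

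Mbp encodes the basic protein that compacts the myelin sheath; its locus also gives rise to Golli transcripts, which are made outside the nervous system, thymus included, and gene counts do not separate the forms (Entrez 17196, chromosome 18, 82475091 to 82585637, exons of 6718 bases). It was the most abundant of the 8, with 1042 to 2483 counts in every library. It stood at 58.7, 49.0 and 50.1 CPM in Control, 45.3, 57.3 and 63.5 in Knockout, 38.4, 39.0 and 43.0 in DMSO cultures, and 42.6, 49.3 and 50.6 in WM-3835. All DMSO libraries lay below all Control libraries, and the other 2 comparisons overlapped.

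Mbp differed by 0.07 on the log2 scale in Knockout (SE 0.12, 95% interval -0.18 to 0.33, adjusted p = 0.752) and by 0.24 in WM-3835 (SE 0.12, -0.01 to 0.50, adjusted p = 0.195). The second passed when the 6 wildtype libraries were fitted alone (0.24, adjusted p = 0.0451). DMSO lay below Control by a log2 change of -0.39 (SE 0.12, -0.64 to -0.14, adjusted p = 0.0239), from 52.6 ± 5.33 to 40.1 ± 2.52 CPM. That call was lost without Control 1 (-0.29, adjusted p = 0.114), DMSO 1 (-0.35, 0.105) or DMSO 2 (-0.36, 0.0857) and with Xist as a covariate (-0.03, 0.961). As for Tg, the Xist covariate cannot tell X-chromosome makeup from group in this comparison. The markers Sox10, Foxd3, Erbb3 and Cdh19 of Schwann cells and neural crest summed to 67.3 to 90.5 CPM in Control (4 of 4 with counts) and 46.5 to 59.8 in DMSO (4 of 4), most of it Erbb3 (40.02 to 81.5 CPM over all libraries). Foxd3 stood at 5.57 to 9.70 CPM and Sox10, which defines that lineage, at 0.258 to 2.01 CPM, and Cdh19 was at 0 in 10 of 12 libraries. The 10 thymocyte markers summed to 8.21 to 14.1 CPM in Control and 11.6 to 12.5 in DMSO. The part of these cells in the Mbp values was not tested.

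Across the members, edgeR called 0 of 6 in Knockout against Control, where 14.2% of all 18670 tested genes were called, and 0 of 6 in WM-3835 against DMSO, where 18.7% were. Split by direction, 6.12% of all genes were higher and 8.06% lower in Knockout, and 9.34% and 9.35% with WM-3835. At those shares about 1 call among 6 genes would match the rest of the table, so neither 0 sets the members apart. None of the 6 had an unadjusted p under 0.05 in either comparison with edgeR; DESeq2 and limma-voom also called 0, with 0 unadjusted in Knockout and 1 each in WM-3835. The model of the 6 wildtype libraries alone called 3 in WM-3835 (Ins2 and Tg lower, Mbp higher) while calling 6070 genes in all, against 3490 in the 12-library model. Called genes of WM-3835 were lower in 50.03% of cases with TMM scaling and in 60.1% with upper-quartile scaling. The difference between the knockout and inhibitor effects was called for 0 of 6 members and 10.1% of genes (4.41% positive and 5.69% negative); 0 members had an unadjusted p under 0.05 with edgeR or limma-voom and 1 with DESeq2. DMSO against Control called 2 of 6, Tg higher and Mbp lower, where 24.6% of genes were called (11.4% higher and 13.3% lower). Without DMSO 1 it called 0, and without any other single library of that comparison 1. Since 2 genes did not pass the filter on low counts, these counts cover 6 of the 8 members.

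**Figure D4:**
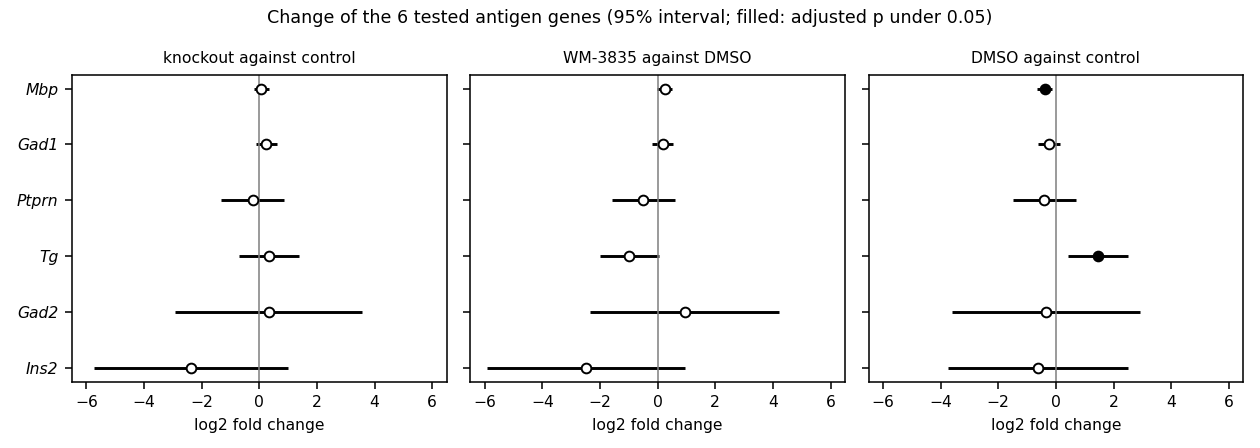
Log2 fold change with its 95% interval for the 6 tested antigen genes in 3 comparisons; filled points passed at an adjusted p under 0.05. Intervals for Ins2 and Gad2 span several units, those of Mbp and Gad1 less than 1 unit, and only Tg (1.46) and Mbp (-0.39) in DMSO against Control are filled.

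For the 5 other tested members the genes of most similar pattern over the 12 libraries, of the same 16820, included Mup4 and Tshz1 for Ins2 (r = 0.965 and 0.940), Exoc7 and Ociad2 for Gad1 (0.900 and 0.869), and Serpina1e, Pcdhga5 and Cnpy1 for Gad2 (0.926, 0.922 and 0.916). They also included Cfap299, H2-T3 and Filip1 for Ptprn (0.913, 0.904 and 0.903), and Ocln, Slc6a6 and Ces2g for Mbp (0.925, 0.891 and 0.889). No member was among another's 3 closest genes.

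A further 80 genes, in 4 lists of tissue genes of the same organs and 1 list of other autoantigens, showed more called falls than rises in both comparisons. The organ lists hold hormones, enzymes and other tissue genes, not only autoantigens. All lists were chosen with earlier results of these data known, so these counts describe the lists and do not test them. Of 66 tested, 15 fell and 1 rose in Knockout (median log2 change -0.57, all tested genes -0.01), where 8.06% of all tested genes fell and 6.12% rose. With WM-3835 13 fell and 3 rose (median -0.69, all genes -0.01), where 9.35% of all genes fell and 9.34% rose. The knockout count depended on which libraries and covariates were used. With Xist as a covariate 2 list genes were called, of which 1, Cntn2, was among the 16, and when the knockout group was reduced to library 3, where Xist was low, 4 were called, of which 3 were. Without DMSO 2 the inhibitor count fell to 9. In the Control libraries fibroblast markers summed to 101 to 168 CPM against 48.7 to 74.4 in Knockout, with all 6 present in both, and their part in these counts was not tested.

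Among 15 islet genes 10 were tested. In Knockout 2 fell and 8 did not pass (median -0.45), and with WM-3835 4 fell and 6 did not pass (median -0.97), beside 14.2% and 18.7% of all genes called in either direction. Sst, the hormone somatostatin, went from 7.03 ± 2.85 to 2.60 ± 0.577 CPM in Knockout (log2 -1.43, SE 0.44, adjusted p = 0.0373) and from 3.88 ± 0.664 to 1.41 ± 1.10 with WM-3835 (-1.45, adjusted p = 0.0300). Pyy, the peptide YY hormone, fell by 1.05 (adjusted p = 0.0443) and by 1.31 (adjusted p = 0.0106). In Knockout both calls were lost in 7 to 9 of 17 other settings. Abcc8, the sulfonylurea receptor of beta cells, fell by 0.69 with WM-3835 (adjusted p = 0.00602) and gave 0.36 in Knockout (adjusted p = 0.159), and these effects differed by 1.05 (adjusted p = 0.00611). For Ptprn2 the effects also differed, by 0.93 (adjusted p = 0.0225).

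Among 12 thyroid genes 11 were tested. Dio1, the deiodinase that activates thyroid hormone, fell by 0.54 in Knockout (SE 0.12, adjusted p = 0.00701), where it was the only call of 11, below the 14.2% of all genes called (median -0.16), and by 0.93 with WM-3835 (adjusted p = 3.25e-05). Slc5a5, the iodide transporter, fell by 1.05 with WM-3835 (SE 0.23, adjusted p = 0.00332). Duox2, the oxidase that supplies peroxide for hormone synthesis, rose from 0.578 ± 0.153 to 2.04 ± 0.303 CPM (log2 1.80, adjusted p = 0.0210), so 2 fell and 1 rose of 11 (median -0.56, 18.7% of all genes called). The Duox2 call was lost in 5 of 16 other settings, and the Dio1 call in Knockout was lost with Xist as a covariate.

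Among 17 eye genes 11 were tested, and 1 fell in each comparison, a smaller share than the 14.2% and 18.7% of all genes called. Cryaa, a lens crystallin, went from 5.10 ± 3.24 to 0.577 ± 0.222 CPM in Knockout (log2 -3.13, SE 0.99, adjusted p = 0.0414), a call lost in 11 of 17 other settings. Rcvrn, the photoreceptor protein recoverin, went from 2.71 ± 0.638 to 0.520 ± 0.202 CPM with WM-3835 (log2 -2.37, SE 0.64, adjusted p = 0.0140). Medians were 0.20 in Knockout and -0.95 with WM-3835. Like Rbp3, 6 of these eye genes had too few counts to test.

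Among 15 genes of myelin and nervous tissue 14 were tested. In Knockout 5 fell and 9 did not pass (median -0.76), and with WM-3835 3 fell, 1 rose and 10 did not pass (median -0.57), beside 14.2% and 18.7% of all genes called. Cntn2, an axonal adhesion molecule, moved in opposite directions. It went from 25.9 ± 3.91 to 8.67 ± 0.807 CPM in Knockout (log2 -1.58, SE 0.17, adjusted p = 8.74e-06). With WM-3835 it went from 9.16 ± 1.78 to 23.1 ± 1.50 CPM (1.33, SE 0.17, adjusted p = 1.73e-05). The effects differed by -2.90 (adjusted p = 6.18e-07), and both calls held in all other settings run. Cnp, an enzyme of myelin membranes, fell by 0.71 in Knockout (adjusted p = 0.000112), and Aqp4, the water channel targeted in neuromyelitis optica, by 1.58 (adjusted p = 0.000565). The Cnp and Aqp4 calls were narrowly lost with Xist as a covariate (adjusted p = 0.0547 and 0.0551). With WM-3835 Nfasc, the adhesion molecule neurofascin, fell by 1.26 (adjusted p = 5.12e-06). Mbp itself was called in neither comparison.

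Among 21 further autoantigens 20 were tested. In Knockout 6 fell and 1 rose (median -0.91), and with WM-3835 3 fell and 1 rose (median -0.99), beside 14.2% and 18.7% of all genes called. They are mostly antigens of other organs and make up 7 of the 16 list genes called in Knockout. Atp4a, the gastric proton pump targeted in autoimmune gastritis, fell by 2.47 in Knockout (adjusted p = 0.00342) and by 1.97 with WM-3835 (adjusted p = 0.00872). Col17a1, the hemidesmosome collagen targeted in bullous pemphigoid, went from 87.0 ± 48.7 to 30.01 ± 8.45 CPM in Knockout (log2 -1.54, adjusted p = 0.000803), and Dsg1a, a desmoglein of pemphigus, fell by 0.70 (adjusted p = 0.00655). The Knockout calls of Atp4a, Col17a1 and Dsg1a were lost with Xist as a covariate. With WM-3835 Dsg3, the other pemphigus desmoglein, rose by 1.10 (adjusted p = 0.00168) and Tph1, the serotonin-making hydroxylase, fell by 1.46 (adjusted p = 0.00767). The rise in Knockout, named here after its values were seen, was Nlrp5, an oocyte and parathyroid antigen. It had 0 counts in Control and 16 to 31 in each Knockout library. That is at least 31.7-fold higher when Control is set at 3 counts over the group. The Nlrp5 call was lost in 4 of 16 other settings. Control was the only group without Nlrp5 counts. Mean levels elsewhere ran from 0.211 ± 0.274 CPM (WM-3835) through 0.537 ± 0.315 (DMSO) to 0.794 ± 0.182 (Knockout). DMSO cultures also exceeded Control in Nlrp5 (adjusted p = 0.0132), at least 19.2-fold with Control set at the same limit.

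**Figure D5:**
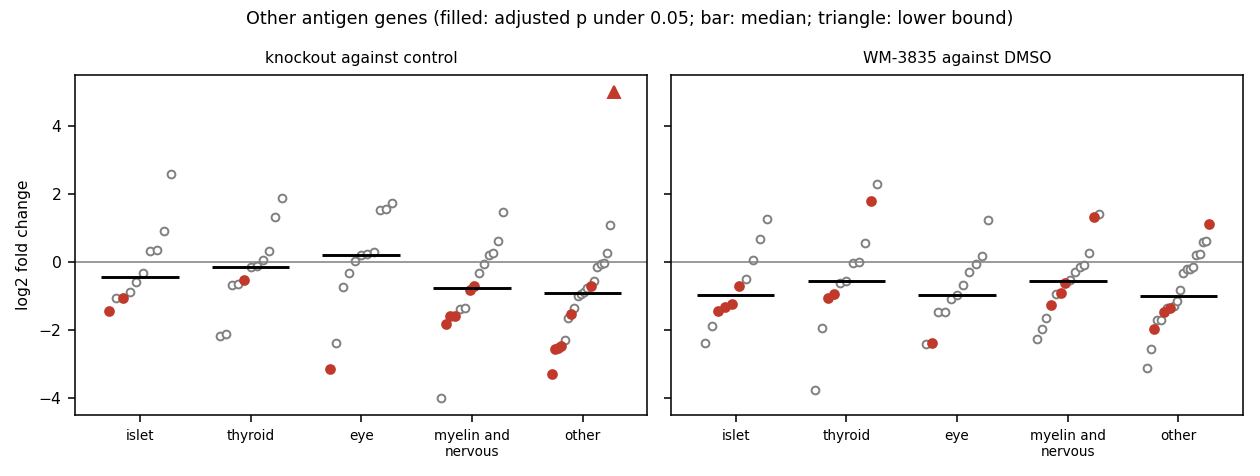
Log2 fold change of the tested genes in 5 lists of tissue genes and autoantigens, for Knockout against Control and WM-3835 against DMSO. The lists were chosen with earlier results of these data known. Points are filled where the adjusted p was under 0.05, bars are list medians, and the triangle is a lower bound for Nlrp5, whose Control libraries were at 0. Filled points are mostly below 0 in both panels, 15 of 16 in Knockout and 13 of 16 with WM-3835.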

How the data were processed

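RNA-seq counts were analysed from 12 libraries of sorted TECs, prepared with an unstranded kit (TruSeq RNA v2, paired 75-base reads) per the labels' protocols. The deposited values are raw counts per gene, and the submitters' processing notes name featureCounts and the build mm10. Not given in the sources used here are the aligner, the annotation, the strandedness option and whether 1 count is a read or a pair. Genes without a symbol (1312 of 27179, 0.657% to 0.743% of counts) were left out. edgeR 4.0.16 in R 4.3.3 (TMM, filterByExpr, 18670 genes, quasi-likelihood, 4 group means) gave log2 fold changes, SE, 95% intervals and two-sided Benjamini-Hochberg adjusted p-values over all genes, called under 0.05; it was tested on simulated data. CPM per kb used the deposited lengths. The 8 members and all lists were chosen with earlier results of these data known. Named genes were the members, Kat7, Aire, Fezf2, up to 3 called genes with the smallest adjusted p per list and comparison, and the 3 genes of highest r (log2 CPM, prior count 2) per member. A few genes that these rules or the marker lists take are not reported here, and marker sums leave them out. Alternatives were DESeq2 1.42.0, limma-voom (limma 3.58.1) with and without quality weights, scaling by RLE or upper quartile, 2 other filters, 6-library fits, a replicate block, Xist as a covariate, Knockout 3 as the only knockout library and leaving out each library. They were applied to the list genes, Aire and Fezf2 after the data were seen. GENCODE M21 gave exon overlaps and RefSeq on GRCm38.p6 gave positions.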

Additional observations from a re-analysis of the deposited data

How the results depend on the processing

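Of 414 member log2 fold changes recomputed, 363 kept sign and side of the threshold, 13 lost a call, 4 gained one and 34 changed sign, all of uncalled values; the cause was not tested. Depth limits Rbp3 and Mog to their detection limits. Intervals of Ins2 and Gad2 spanned several log2 units. Their squared deviations were 25.8 and 37.8 times counting error in Control, and 0.927 and 0.515 times in DMSO. All 64 levels under other scalings moved by less than 1 SD. A filter of CPM over 1 in 3 libraries left no value for Ins2 and Gad2.

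Members called with WM-3835 went from 0 to 3 on 6 libraries and to 1 with quality weights. In DMSO against Control they went from 2 to 1 with quality weights, no filter, 6 libraries or the replicate block, to 0 with Xist as a covariate, and to 0 to 1 when 1 library was left out. Fits with the Xist covariate cannot tell X-chromosome makeup from group in that comparison. Genes called in Knockout went from 2646 to 1180 with quality weights, 1157 on 6 libraries, 482 with Xist and 704 with Knockout 3 alone, and with WM-3835 from 3490 to 6589 with quality weights and 6070 on 6 libraries. The difference of effects went from 1887 to 693 with Xist and 784 with Knockout 3 alone, and DMSO against Control from 4600 to 798 with Xist. Leaving out 1 library gave 1773 to 2792 genes in Knockout, 2393 to 2689 with WM-3835, 1346 to 2232 for the difference and 3257 to 4778 in DMSO against Control. List genes called in Knockout went from 16 to 8 with quality weights, 10 on 6 libraries, 2 with Xist and 4 with Knockout 3 alone, and with WM-3835 from 16 to 25 with quality weights and to 9 to 15 when 1 library was left out. For the difference of effects they went from 7 to 2 with Xist and 2 with Knockout 3 alone, and in DMSO against Control from 19 to 4 with Xist.

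Signs changed as follows. Leaving out 1 library moved Gad2 in Knockout between -0.25 and 6.94 (the latter, like the highest Gad2 values below, without Control 1, which leaves Control at 0), Ptprn in Knockout between -0.58 and 0.47, and Mbp in Knockout between -0.029 and 0.21, and Fezf2 with WM-3835 between -0.030 and 0.012. In DMSO against Control it moved Ins2 between -1.17 and 0.63, Gad2 between -0.89 and 6.30 and Ptprn between -0.74 and 0.31. For the difference of effects it moved Ins2 between -1.16 and 1.38, Gad1 between -0.087 and 0.26, Gad2 between -1.19 and 6.00 and Ptprn between -0.10 and 0.98. With limma-voom and with quality weights, Ptprn in Knockout was 0.016 and 0.017, Ins2 in DMSO against Control 0.80 and 0.80, Gad2 there 2.17 and 2.17, and the Gad2 difference of effects 0.96 and 0.96. With Xist, Gad2 in DMSO against Control was 0.88, and the differences of effects were -3.40 for Ins2, 0.10 for Gad2 and 0.072 for Mbp. With Knockout 3 alone they were -4.98, 0.13 and 0.048.

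Same-numbered libraries deviated together little (r from -0.049 to 0.14), so the numbers were not taken to pair them. The replicate block gave 2542 genes in Knockout, 3505 with WM-3835, 2027 for the difference and 4559 in DMSO against Control. It turned Ins2 (0.24) and Gad2 (0.86) in DMSO against Control.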

Other observations

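The lists of tissue genes and autoantigens were also followed in DMSO against Control, where treatment and genotype label both differ. There 16 of 66 tested genes fell, 3 rose and 47 did not pass (median log2 change -0.53, all tested genes 0.00), with 24.6% of all genes called. The lists were chosen with earlier results of these data known, and the genes named here after their values were seen. Mag, a myelin glycoprotein, went from 5.45 ± 2.15 CPM in Control to 0.642 ± 0.175 in DMSO (log2 -3.09, adjusted p = 0.00107), and Aqp4 from 17.5 ± 5.63 to 2.79 ± 0.284 CPM (-2.64, adjusted p = 9.77e-07). Iapp, the islet amyloid peptide, went from 3.69 ± 2.41 to 1.06 ± 0.453 CPM (-1.81, adjusted p = 0.0345). With Xist as a covariate, which cannot be separated from group in this comparison, 4 of the list genes were called.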
